A study of Mus musculus with 2 samples.

Results

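Proteasome subunit genes were followed in single bone marrow cells of the mouse. The members are all features whose symbol begins with Psma, Psmb, Psmc, Psmd, Psme or Psmg, apart from 1 not reported here, which gave 52 of 28204 features. Of these, 44 encode subunits, activators or assembly chaperones of the proteasome: 7 of the alpha ring, 7 of the beta ring, 2 immunoproteasome subunits, 9 of the base, 8 of the lid, 4 activators and 7 chaperones. The other 8 are 5 copies or pseudogenes of subunits, the tissue-restricted forms Psma8 and Psmb11, and Psmc3ip, a recombination factor that carries the prefix but is not a subunit.

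The proteasome is the protease that removes ubiquitin-tagged proteins. Its barrel-shaped core particle is built of alpha rings, which gate the entrance, and beta rings, which hold the active sites. The regulatory particle on its end has a base of ATPases that unfold the substrate and a lid that removes ubiquitin. The immunoproteasome exchanges catalytic beta subunits for inducible forms and is common in blood cells. In blood stem cells, protein synthesis is known to be kept low, and protein turnover is part of how these cells keep their protein content in balance.

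The cells came from whole bone marrow and were a mixture of GFP-positive cells of Mds1-GFP/+ Flt3-Cre mice, sorted on GFP and a dye that marks dead cells, and of stem cells of wild-type mice, sorted as Lin-cKit+Sca+CD48-CD150+ (the SLAM gate for long-term blood stem cells, LT-HSCs). The reporter cassette is flanked by loxP sites, the targets of the Cre recombinase driven from Flt3, a gene of early progenitors. Both kinds of cell were in 1 pool, which was loaded as 2 aliquots on the inDrops platform, where each cell is lysed in a droplet and each captured RNA molecule is counted as a unique molecular identifier (UMI). The labels do not say which cell came from which mouse, and ages are not given. So the contrasts below are between sets of cells within the pool, there is no replicate animal, and no test is possible. The aliquots show technical spread only. Intervals are 95% and cover counting error only.

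The 3402 kept cells, of 10809 barcodes, had at least 500 UMIs and at most 20% mitochondrial UMIs. Aliquot 1 gave 1574 cells with a median of 946.5 UMIs and aliquot 2 gave 1828 cells with a median of 2071.5. A total of 461 barcodes occurred in both aliquots, and 55 of them passed the filters in both. All 10 LT-HSC markers were detected, with 2197 counts per 1000000 UMIs (CPM) in sum, but so were all 9 neutrophil markers, at 2132 CPM. The kept cells are therefore not called LT-HSCs here. In the reporter data, 71 kept cells (2.09%) had at least 1 GFP UMI.

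Sequence before the start of the genes is a feature that the choice of members did not use. RefSeq promoter windows (GRCm38.p6, 250 bases before to 50 after the start) were found for 37 of the 44 genes with a role, 40 windows in all. Each window was searched on both strands for 3 motifs, with overlaps between motifs counted for each. The ETS core CCGGAAG was in 37.5% of the member windows, from 14 genes, and in 8.86% of all 32850 windows. It was in 66.7% of base windows and 66.7% of lid windows, and in none of the 4 beta ring windows. The CCAAT box was in 32.5% of the member windows against 37.4% of all, but in 5 of 8 alpha ring windows. The antioxidant response element TGACNNNGC, the kind of element bound by the Nfe2l1 and Nfe2l2 factors, was in 15% against 12.4%, and its beta ring matches were in Psmb5 and Psmb6. Member windows had a median GC content of 59%, and all windows 52.7%, and the part of base composition in the motif shares was not tested. A match is a string of letters and not a shown binding site. The stretches below end before the annotated start and are read along the gene's strand, with each match of the named motif in capitals. Psmd11 of the lid and Psmd2 of the base show the ETS core (in reverse), Psma1 of the alpha ring and Psmd14 of the lid the CCAAT box (in reverse in Psmd14, and in both directions in Psma1), and Psmb6, a catalytic subunit, the antioxidant element.
Psmd11, chr11:80428545-80428614, plus strand: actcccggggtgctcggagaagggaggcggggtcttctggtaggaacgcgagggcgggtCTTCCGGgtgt
Psmd2, chr16:20651582-20651651, plus strand: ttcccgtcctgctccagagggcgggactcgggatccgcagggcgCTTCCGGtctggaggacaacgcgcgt
Psma1, chr7:114276177-114276246, minus strand: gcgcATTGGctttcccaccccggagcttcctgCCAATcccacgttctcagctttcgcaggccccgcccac
Psmd14, chr2:61711503-61711572, plus strand: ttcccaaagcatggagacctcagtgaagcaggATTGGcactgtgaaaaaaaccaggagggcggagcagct
Psmb6, chr11:70525287-70525356, plus strand: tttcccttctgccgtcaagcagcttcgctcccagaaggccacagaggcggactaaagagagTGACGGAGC

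The 52 members gave 27082 UMIs, or 0.478% of all UMIs in kept cells (0.472 to 0.484%). The share was 0.486% in aliquot 1 and 0.474% in aliquot 2. All 52 were detected, and each of the 44 genes with a role had at least 100 UMIs. After each cell was thinned to 500 UMIs, a member UMI was seen in 88.2% of cells, with a mean of 2.33 and a variance of 2.79 UMIs per cell, and at most 13 in a cell. Barcodes under 200 UMIs, which hold mainly free RNA or fragments, had a share of 0.415%, with 0.231% in aliquot 1 and 0.425% in aliquot 2, so a single member UMI in a cell is not evidence of expression in that cell.

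The share was higher in the deepest cells. In aliquot 1 it was 0.426, 0.429, 0.475 and 0.547% in cells ranked by UMIs into 4 bins, and in aliquot 2 it was 0.427, 0.419, 0.440 and 0.539%. In both aliquots the intervals of the deepest bin lay above those of the other bins.

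Summed by subcomplex, UMIs are not divided by length, since each captured molecule gives 1 UMI from its polyA end. The alpha ring gave 1043 CPM, the beta ring 878, the immunoproteasome subunits 218, the base 811, the lid 827, the activators 621 and the chaperones 325. The core particle, counted as all 22 Psma and Psmb rows with the immunoproteasome, Psma8, Psmb11 and the pseudogenes among them, made up 45.3% of member UMIs and the regulatory particle 34.3%. Structural subunits are present in equal numbers within the particle, but their transcripts were not at equal levels.

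**Figure D1:**
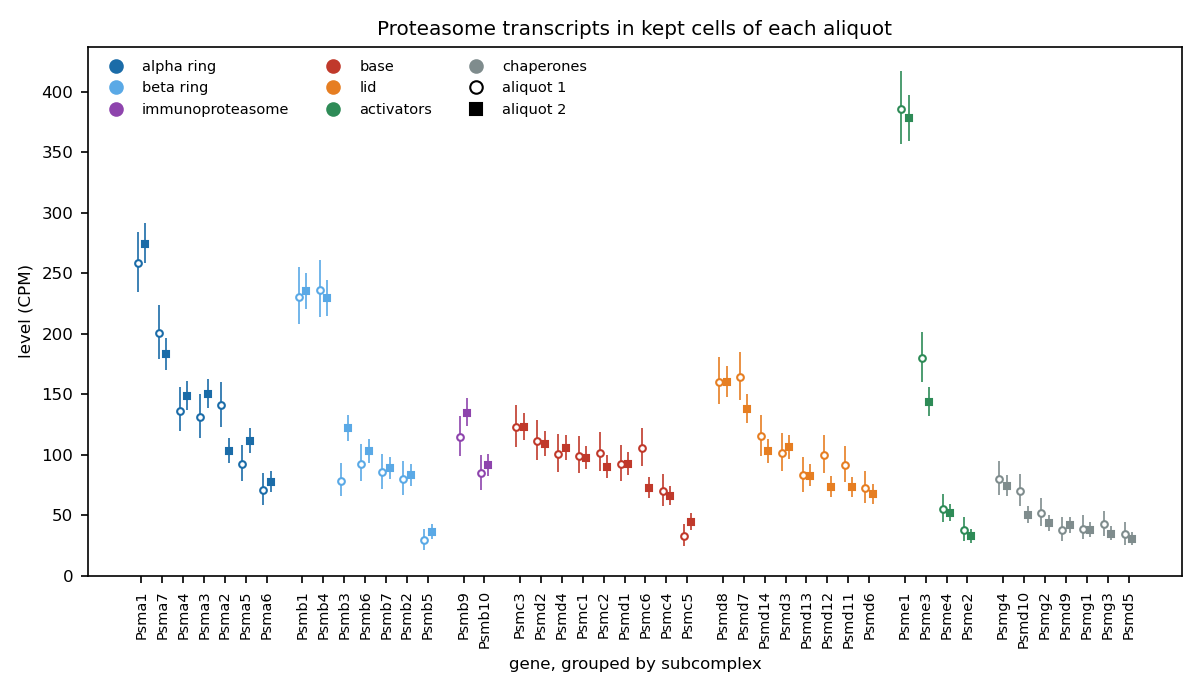
Level of each of the 44 genes with a role, in CPM (y axis), in aliquot 1 (open circles) and aliquot 2 (filled squares), grouped by subcomplex. Bars are 95% Poisson intervals; Psme1 was highest at 380 CPM and Psmd5 lowest at 31.6 CPM.

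Psme1 (GRCm38, GENCODE, chr14:55578123-55581529), a subunit of the activator ring that opens the core without ATP, was the most abundant member at 380 CPM, with 386 in aliquot 1 and 378 in aliquot 2. Its partner Psme2 was at 34.1 CPM (37.8 and 32.5), and the 11.2-fold gap between them was the widest within a subcomplex. Psme2b, a copy of Psme2, held 9 UMIs, and how reads shared by such copies were counted is unknown, so the level of Psme2 is uncertain. Psme3, the nuclear activator, was at 154 CPM and Psme4 at 52.6 CPM.

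In the alpha ring, Psma1 was highest at 270 CPM and Psma6 lowest at 75.7 CPM. In the beta ring, Psmb1 (234 CPM) and Psmb4 (231 CPM), neither of them catalytic, were highest. The catalytic subunits were lower: Psmb6, with caspase-like activity, was at 99.9 CPM, Psmb7, with trypsin-like activity, at 87.7 CPM, and Psmb5, with chymotrypsin-like activity, at 34.2 CPM, the lowest of the ring. Psmb5, Psmb6 and Psmb7 have pseudogene rows, and how reads shared with these were counted is unknown, so their levels are uncertain. The base ran from Psmc5 at 41.1 CPM to Psmc3 at 123 CPM, both ATPases. Apart from the immunoproteasome pair, the lid was the most even group, from Psmd6 at 68.8 CPM to Psmd8 at 160 CPM, a 2.33-fold range. Chaperones, which assemble the rings (Psmg1 to Psmg4) or the base (Psmd5, Psmd9 and Psmd10) and leave the finished particle, were all below 76 CPM. Psmg4 was at 75.7, Psmg2 at 45.7, Psmg1 at 38.1 and Psmg3 at 37.0 CPM.

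The aliquots gave like levels for most genes: 36 of 44 differed by less than a ratio of 5 to 4 between them, and the median ratio of aliquot 2 to aliquot 1 was 0.98. Psmb3 stood furthest apart on the high side, with 78.6 CPM in aliquot 1 and 122 CPM in aliquot 2, and Psmc6 on the low side, with 105 and 72.5 CPM. These ratios, 1.55 and 0.69, are the ends of the spread of single gene levels between the aliquots.

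The inducible catalytic subunits were at about the level of the constitutive ones they replace. Psmb9 gave 56.4% of the UMIs of Psmb9 and Psmb6 together (53.6 to 59.1%), with 55.3% in aliquot 1 and 56.7% in aliquot 2. Psmb10 gave 50.4% of those of Psmb10 and Psmb7 (47.3 to 53.6%), with 49.8 and 50.7%. In the cell sets described below, Psmb9 was at 56.4% in S phase-high cells and 58.1% in S phase-low cells, and Psmb10 was at 47.7% in G2/M-high and 53.9% in G2/M-low cells, all with overlapping intervals. An exon of Psmb9 overlaps an exon of Tap1 on the other strand, and whether strand was used in counting is unknown from the labels. The levels of Psmb6 and Psmb7 are uncertain because of their pseudogenes, so the shares of both pairs are uncertain as well.

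Among the 8 rows without a subunit role in this tissue, Psmc3ip had 157 UMIs in 101 cells. Psmb11, the thymus form of Psmb5, had 71 UMIs in 65 cells, and Psma8, the testis form of an alpha subunit, had 64 UMIs in 51 cells. The 4 pseudogene rows together with Psme2b were close to nothing, with 1 to 9 UMIs each. Exons of 16 of the 52 members overlap an exon of another gene, among them those of Psme1 (with Emc9), Psmd13 (with Sirt3) and Psmc3 (with Slc39a13).

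Cells with S phase transcripts had more proteasome RNA, and the lid led. Cells with at least 3 UMIs of 47 S phase genes after thinning (544 cells) were set against cells with none (920 cells), leaving out cells with 3 or more UMIs of the G2/M list. Member RNA was 5193 CPM against 4232 CPM in aliquot 1 and 5374 against 4168 CPM in aliquot 2. In both aliquots the S phase-high cells were thus higher, and the pooled ratio was 1.27 (1.23 to 1.32). A gene was counted as past the fold where its pooled ratio was at least 5 to 4, or at most 4 to 5, with the same direction in both aliquots. Only genes for which the smaller set of cells held, or at equal levels would hold, 50 UMIs were read. Of the 52 members 37 were measured, and 16 were past the fold higher (43.2%) and 0 lower, where 22.1% of all 4493 measured features were higher and 20.9% lower. Psmg2 reached the minimum only through its UMIs in the S phase-high cells. With the minimum set on the UMIs of both cell sets pooled, chosen after seeing the data, 15 of 36 members (41.7%) were past the fold higher and 0 lower, where 20.2% of features were higher and 19.3% lower. For 1 aliquot alone, only the fold in that aliquot was asked, so these counts are under a looser rule. Aliquot 1 measured 7 members, 3 higher (42.9%) and 0 lower, where 27.8% of features were higher and 20.5% lower. Aliquot 2 measured 34 members, 17 higher (50%) and 1 lower, where 27% of features were higher and 23% lower. With both aliquots pooled, the median log2 ratio of the 37 measured members was 0.33 and that of all 4493 measured features -0.01.

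The share of member UMIs was higher in cells with 2 or more S phase UMIs than in those with fewer. Cells with 0 S phase UMIs had 0.418%, those with 2 had 0.467%, those with 4 had 0.534% and those with 6 had 0.573%, but those with 7 had 0.508% and those with 8 had 0.563%. Over the G2/M list it was 0.442% at 0 and 0.561% at 4 UMIs, and from there to 14 UMIs it showed no further rise, with 0.518% at 7, 0.577% at 11 and 0.495% at 14. Of neighbouring S phase bins, only those at 1 and 2 UMIs (0.423 and 0.467%) had intervals that did not overlap. Median depth differed between the bins too, with 1253 UMIs at 0, 1402 at 6 and 2700 at 8 S phase UMIs. Over the G2/M list it was 1279.5 at 0 and 2266.5 at 14. The part of depth in the shares of these bins was not tested.

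**Figure D2:**
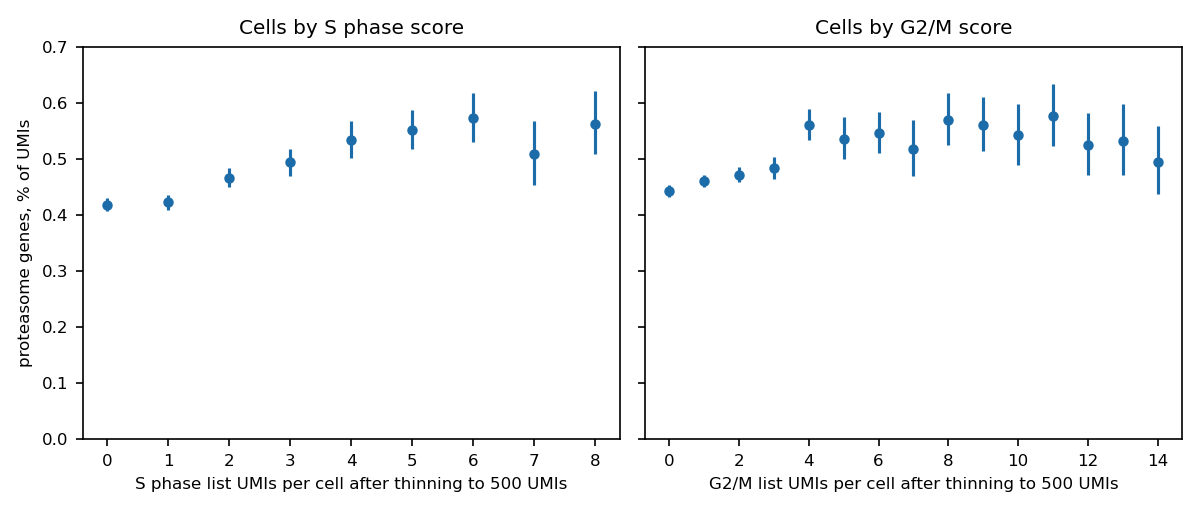
Share of all UMIs given by proteasome genes (y axis, %) in cells grouped by their UMIs of the S phase list (left) or the G2/M list (right) after thinning to 500 UMIs; bars are 95% binomial intervals, and bins hold at least 20 cells. The share is 0.418% at 0, 0.573% at 6 and 0.508% at 7 S phase UMIs, and 0.442% at 0, 0.561% at 4 and 0.495% at 14 G2/M UMIs. Median depth also differs between the bins.

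The lid ratio was 1.55 (1.41 to 1.69), with 1022 against 702 CPM in aliquot 1 and 1007 against 638 CPM in aliquot 2. The lid/core ratio of ratios was 1.26 (1.13 to 1.41). This pair, like the other pairs compared below, was not set in advance, and its interval takes no account of the choice. The alpha ring was at 1.30, the beta ring at 1.14, the immunoproteasome subunits at 1.24, the base at 1.18, the activators at 1.26 and the chaperones at 1.18, the last with 0.97 when each cell was thinned. All 8 lid genes were above 1, and 5 were past the fold.

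Psmd14 (chr2:61711694-61800376), the metalloprotease of the lid that cuts ubiquitin from the substrate, was at 136 CPM in S phase-high and 63.6 CPM in S phase-low cells of aliquot 1 and at 140 and 66.6 CPM in aliquot 2. Its ratio, 2.11 (1.61 to 2.80), was the highest of the measured members, and it was 1.54 with cells scored from another random draw of the thinning. Psmd13 (chr7:140881968-140898643), a scaffold subunit of the lid, was at 118 against 42.4 CPM in aliquot 1 and 105 against 55.5 CPM in aliquot 2, a ratio of 2.08 (1.52 to 2.85). For both genes, each aliquot's S phase-high level lay above either aliquot's S phase-low level. Without Psmd13 and Psmd14, the other 6 lid genes were still at 1.42 (1.28 to 1.58). Among them, Psmd6 was at 1.68, Psmd7, the inactive partner of Psmd14, at 1.65, and Psmd8 at 1.42. Psmd12 was at 1.42 pooled, but at 0.86 in aliquot 1 and 1.75 in aliquot 2.

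Outside the lid, Psmb3 (chr11:97703399-97713500) of the beta ring was at 95.9 against 51.5 CPM in aliquot 1 and 138 against 80.7 CPM in aliquot 2, a ratio of 1.72 (1.31 to 2.27). Psme3 was at 203 against 142 CPM and 212 against 118 CPM, a ratio of 1.69 (1.37 to 2.09). The ATPase Psmc3 was at 1.46 and Psma1 at 1.45. The lowest ratios were those of Psmb2 at 0.80 and Psmb1 at 0.90, both of the beta ring and both with intervals that held 1. Psmc6 and the chaperone Psmd10 were at 1.02, Psmd4, a ubiquitin receptor of the base, at 1.05, Psmc1 at 1.06, Psma5 at 1.07 and Psmc2 at 1.10. Of the catalytic subunits, Psmb7 was at 1.40, and Psmb6 was at 1.31 pooled but at 0.82 in aliquot 1 and 1.53 in aliquot 2, so it was not past the fold. Their inducible counterparts were at 1.22 for Psmb9 and 1.26 for Psmb10. Psme1, the most abundant member, was at 1.14 (0.99 to 1.30). Of the ring chaperones, Psmg2, from which nothing is read because of how it reached the minimum, was at 1.44 and Psmg4 at 1.12, and the others did not have enough UMIs.

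S phase-high cells were also deeper, with a median of 1530.5 UMIs against 1253, and had fewer LT-HSC marker UMIs (1714 against 2910 CPM) and fewer neutrophil marker UMIs (252 against 722 CPM, 9 of 9 markers in the files and none at 0 in either set). They had more UMIs of the G2/M list (3154 against 1838 CPM) and of the megakaryocyte markers (426 against 235 CPM), and fewer of the monocyte markers (264 against 598 CPM). Within the 4 depth bins of each aliquot, the combined ratio was 1.20, and it was above 1 in 8 of 8 bins (1.14 to 1.31). The part of the marker differences in the ratio was not tested.

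Cells with G2/M transcripts also had more proteasome RNA, in the core as well as the lid. Cells with at least 3 UMIs of 53 G2/M genes after thinning (884) were set against cells with none after thinning (1014). Members were at 5379 CPM in the high set against 4470 CPM in the low set of aliquot 1, and 5193 against 4407 CPM in aliquot 2. The pooled ratio was 1.19 (1.15 to 1.23). Of 45 measured members 17 were past the fold higher (37.8%) and 1 lower, where 20.2% of 6145 features were higher and 22.8% lower. With the minimum on pooled UMIs, 16 of 43 (37.2%) were higher and 1 lower, where 19.4% of features were higher and 20.9% lower. The median log2 ratio was 0.22 for members and -0.02 for all. The same pool of cells gave both splits, so they are not independent.

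**Figure D3:**
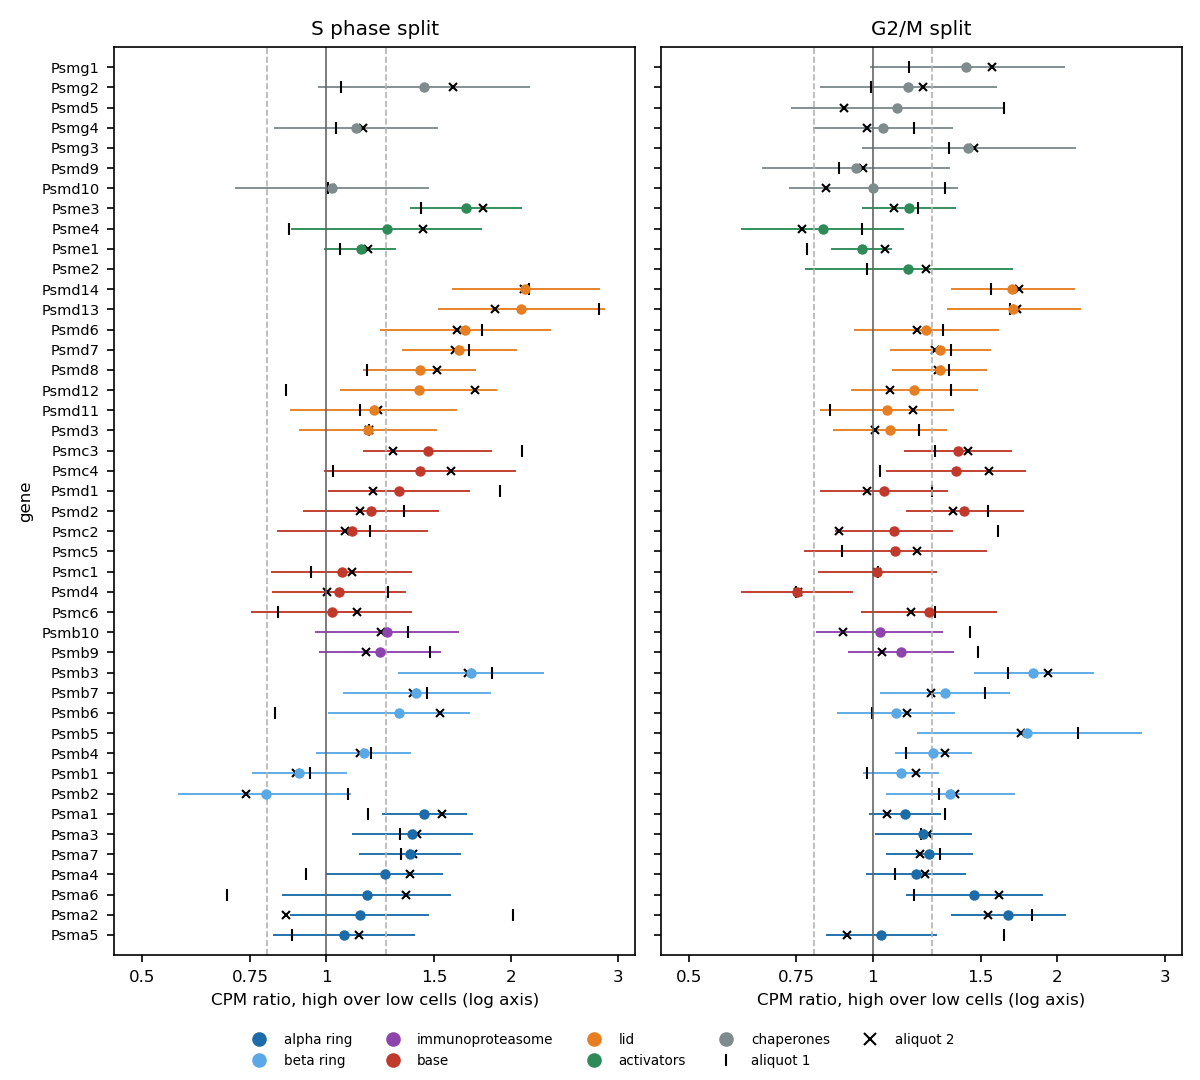
CPM ratio of high over low cells (log axis) for each measured gene, in the S phase split (left) and the G2/M split (right). Dots are pooled ratios with 95% intervals, black marks the aliquots, dashed lines ratios of 5 to 4 and 4 to 5; Psmd13, Psmd14 and Psmb3 stand right of the upper line in both panels, at 1.69 or more.

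The lid was at 1.29 (1.19 to 1.39), the beta ring at 1.28, the alpha ring at 1.23 and the base at 1.13. The activators were at 1.00 (0.92 to 1.09) and the immunoproteasome subunits at 1.08 (0.924 to 1.251), with 1.46 in aliquot 1 and 0.98 in aliquot 2. The lid/core ratio of ratios was 1.05 (0.96 to 1.15), so here the lid did not stand out from the core beyond counting error. The beta ring/activator ratio of ratios was 1.28 (1.14 to 1.44), for a pair of a high and the lowest subcomplex that was not set in advance.

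Psmc3ip, which binds recombinases in homologous recombination, had by far the highest ratio of the family, 4.10 (2.48 to 7.13). It was at 54.4 against 12.2 CPM in aliquot 1 and 50.2 against 12.7 CPM in aliquot 2. It is no subunit, and the 44 genes with a role alone gave 1.18. Psmb3 was at 93.0 against 56.0 CPM in aliquot 1 and 167 against 86.3 CPM in aliquot 2, a ratio of 1.83. The high set of aliquot 1 barely exceeded the low set of aliquot 2, and both aliquots had the same direction. Psmb5, the chymotrypsin-like subunit, was at 1.79 (1.18 to 2.76), but reached the minimum only through its UMIs in the G2/M-high cells. Psmd13 was at 1.70, Psmd14 at 1.69 and Psma2 at 1.66. Psma6 was at 1.46 and the ring chaperone Psmg3 at 1.43, with 0.88 when each cell was thinned. The other catalytic subunits were at 1.31 for Psmb7 and 1.09 for Psmb6, and the inducible Psmb9 was at 1.11. Psmg1 was at 1.42, Psmg2 and the activator Psme2 at 1.14 and Psmg4 at 1.04.

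Psmd4, which binds ubiquitin chains at the base, was the member past the fold lower. It was at 98.2 against 131 CPM in aliquot 1 and 98.0 against 130 CPM in aliquot 2, a ratio of 0.75, but it was at 0.98 with another draw of the thinning. Psme4 was at 0.83, Psmd9 at 0.94, Psme1 at 0.96, Psmd10 at 1.00, Psmc1 at 1.02, Psmb10 at 1.03 and Psma5 at 1.03.

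G2/M-high cells held more UMIs (median 1640.5 against 1279.5) and more neutrophil marker UMIs (5165 against 1094 CPM, none of the 9 at 0 in either set). They also held more UMIs of the S phase list (6950 against 2832 CPM) and of the basophil and mast cell (179 against 15.2 CPM), megakaryocyte (491 against 241 CPM) and monocyte (901 against 461 CPM) markers, and fewer of the LT-HSC markers (1496 against 2751 CPM). The part of these differences in the ratio was not tested. The ratio was 1.19 without the 49 kept cells with at least 5 neutrophil, basophil or mast cell marker UMIs. The G2/M-high set then still held 854 cells. Cells with fewer such UMIs were not removed, so the part of these markers was still not tested. Within the depth bins the combined ratio was 1.10, and it was above 1 in 8 of 8 bins (1.02 to 1.21).

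Lists of other complexes show how far the pattern reached. The COP9 signalosome, which is built like the lid, was at 1.21 (1.07 to 1.37) in the S phase split and 1.19 in the G2/M split. The eIF3 translation initiation complex, which shares the lid's fold as well, was at 1.00 and 0.93. The CCT chaperonin was at 1.28 and 1.09. The 27 proteasome partners, such as shuttle factors, ubiquitin genes and the regulators of subunit transcription, were at 0.98 and 1.04 in sum. In the S phase split, 4 of 6 measured COP9 genes (66.7%) and 4 of 7 CCT genes (57.1%) were past the fold higher. So were 2 of 12 eIF3 genes (16.7%) and 2 of 22 partners (9.09%), where 22.1% of all features were. In the G2/M split it was 4 of 7 for COP9 (57.1%) and 2 of 7 for CCT (28.6%). It was 1 of 12 for eIF3 (8.33%) and 2 of 25 for the partners (8%), where 20.2% of features were higher. Chosen after its values were seen, Uchl5, a deubiquitinase docked on the regulatory particle, was at 1.98 in the S phase split and 1.82 in the G2/M split. Shfm1, the small lid subunit under another symbol, was at 1.37 in the G2/M split and at 1.04 in the S phase split, where it was at 0.89 in aliquot 1.

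Cells with Procr UMIs had slightly less proteasome RNA. Procr encodes a surface receptor that marks blood stem cells. Of the 251 cells of the high set, 224 had exactly 1 Procr UMI after thinning. Barcodes under 200 UMIs held Procr at 218 CPM (181 to 260) and kept cells at 146 CPM (136 to 157), so free RNA can give such a UMI and the set is not a pure set of Procr-expressing cells. In the full counts 540 kept cells held a Procr UMI, so the cells set against the 251 are not all free of Procr. The 251 cells with at least 1 Procr UMI after thinning had 4598 CPM of members against 4880 in the other 3151 cells in aliquot 1, and 4044 against 4786 CPM in aliquot 2. The ratio was 0.88 (0.84 to 0.93), with 0.94 in aliquot 1 and 0.84 in aliquot 2, and the interval of aliquot 1 held 1. Only 10 members were measured, of which 2 (20%) were past the fold lower and 0 higher, where 17% of 1343 features were lower and 14.1% higher. With the minimum on pooled UMIs it was again 2 of 10 lower and 0 higher, where 19.3% of features were lower and 8.2% higher. That share is near the background. Psma1 was at 156 against 267 CPM and 182 against 280 CPM, a ratio of 0.63 (0.47 to 0.81) with the same direction in both aliquots. Psmd7 was at 0.66 pooled, but at 164 CPM in both sets of aliquot 1 and 62.2 against 142 CPM in aliquot 2, so its call rests on aliquot 2. The others were at 0.87 for Psma7, Psme3 and Psmd8, 0.98 for Psmb4, 0.99 for Psma3, 1.01 for Psma4 and 1.08 for Psmb1 and Psme1.

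By subcomplex, the chaperones (0.67, 0.53 to 0.84) and the lid (0.77, 0.67 to 0.88) were lowest and the activators (1.07, 0.93 to 1.22) highest in the Procr split. In aliquot 1 the lid was at 0.89 and in aliquot 2 at 0.68. Procr cells had fewer UMIs of the S phase list (2576 against 4783 CPM) and of the G2/M list (2907 against 5540 CPM), a lower median depth (1130 against 1434) and fewer neutrophil marker UMIs (328 against 2250 CPM, with Ltf, Elane and Mpo at 0). Within the depth bins the ratio was 0.93 and was below 1 in 6 of 8. The part of the cell cycle in this ratio was not tested.

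In cells with reporter UMIs the summed member level had a ratio whose interval held 1. Of these 71 cells, 41 had exactly 1 GFP UMI, and GFP was at 19.8 CPM (9.88 to 35.4) in barcodes under 200 UMIs and 21.9 CPM (18.2 to 26.1) in kept cells, so free RNA can put cells in this set as well. The 71 cells with GFP UMIs had 4211 CPM of members against 4869 in aliquot 1 and 4608 against 4749 CPM in aliquot 2, a ratio of 0.95 (0.87 to 1.03). The core particle was at 0.65 (0.44 to 0.92) in aliquot 1, on 32 UMIs in the reporter cells, and at 0.95 (0.83 to 1.08) in aliquot 2. With at least 20 UMIs as the minimum, 10 members were measured, of which 1 (10%) was past the fold higher and 3 (30%) lower, where 19.1% of 1455 features were higher and 14% lower. Psmc3 was the higher one, at 298 against 121 CPM and 194 against 121 CPM, a ratio of 1.75 (1.16 to 2.54), but it reached the minimum only through its UMIs in the reporter cells, so nothing is read from it. With the minimum on pooled UMIs, 7 members were measured, 0 higher and 3 lower, where 11.3% of features were higher and 17.5% lower. Psme3 (0.56), Psmd8 (0.63) and Psmb1 (0.78) were lower. In aliquot 1, Psme3 and Psmd8 were at 42.5 CPM, which is 1 UMI each in the 23 reporter cells. The other ratios were 0.97 for Psma1 and Psma7, 1.07 for Psmb4, 1.08 for Psme1, 1.11 for Psma3 and 1.16 for Psma4, all with intervals that held 1. Psma3 and Psma4 also reached the minimum only through their UMIs in the reporter cells, so nothing is read from them. In these cells all 5 basophil and mast cell markers, 4 of 9 neutrophil and 5 of 8 erythroid markers were at 0. The set held only 137016 UMIs, and 4 of 5 B cell markers were also at 0 with like sums (29.2 against 30.7 CPM). Megakaryocyte markers were higher (664 against 345 CPM) and LT-HSC markers alike (2160 against 2198 CPM). A missing GFP UMI does not show that a cell lacked the reporter.

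**Figure D4:**
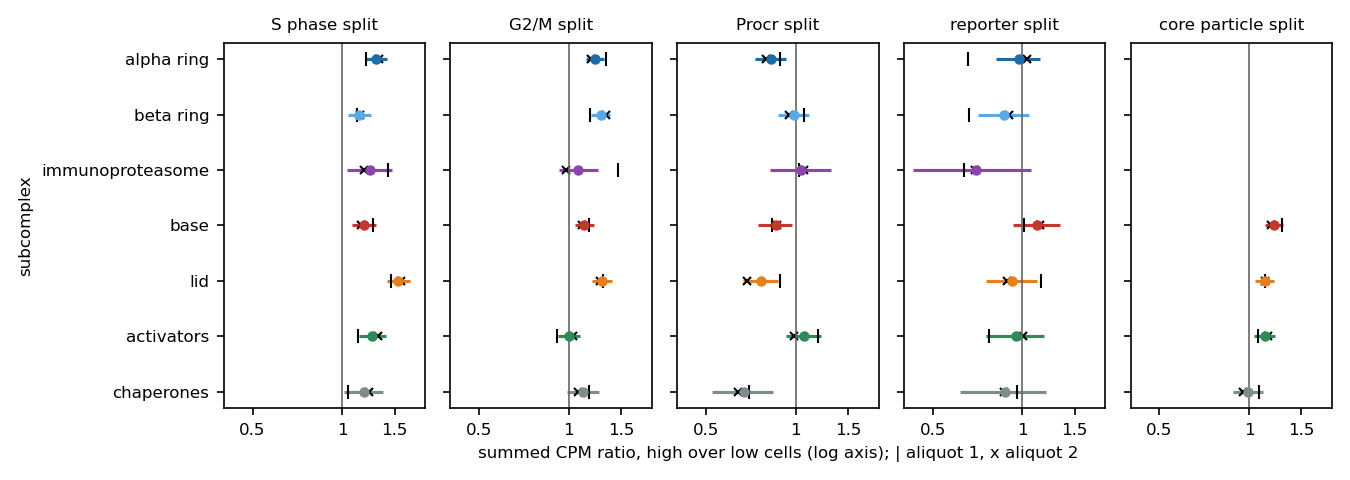
Ratio of summed CPM, high over low cells (log axis), of each subcomplex in the 5 splits, with 95% intervals and each aliquot's own ratio. The lid is furthest right in the S phase split at 1.55; in the core particle split the core itself is not drawn because it defines the cells.

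Cells with more core particle transcripts had somewhat more regulatory particle transcripts. Cells with at least 2 core UMIs after thinning (970) were set against cells with none (1284), and only genes outside the core were read. The regulatory particle was at 1904 against 1578 CPM in aliquot 1 and 1720 against 1489 CPM in aliquot 2, a ratio of 1.17 (1.11 to 1.23). Of 29 measured members 8 were past the fold higher (27.6%) and 1 lower, where 10.1% of 6462 features were higher and 10.9% lower. With the minimum on pooled UMIs, 8 of 28 (28.6%) were higher and 1 lower, where 8.67% of features were higher and 9.94% lower. The median log2 ratio was 0.21 for members and 0.00 for all.

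The base was at 1.21 (1.13 to 1.30), the lid at 1.13 and the activators at 1.13. The chaperones were at 0.99 (0.89 to 1.11), and their ratio to the regulatory particle's was 0.85 (0.75 to 0.96). This pair, with the chaperones the lowest subcomplex, was not set in advance either. The base ATPase Psmc4 was at 90.4 against 56.2 CPM in aliquot 1 and 75.9 against 50.3 CPM in aliquot 2, a ratio of 1.54 (1.18 to 2.00). Psmd6 was at 1.49, Psme2 at 1.48, Psmc3 and Psmc2 at 1.36, Psmc5 at 1.30, Psmc3ip, no subunit, at 1.31 with 0.85 in aliquot 1, Psmd1, the large base scaffold, at 1.29 and Psmg1 at 1.254. Psmc3ip reached the minimum only through its UMIs in the cells with more core UMIs, so nothing is read from it. Psme1 was at 1.07. Psmd9, an assembly chaperone of the base, was the one lower, at 0.76, with 28.8 against 51.4 CPM and 38.4 against 44.6 CPM. Psmd3 was at 0.85, Psmg2 at 0.87, Psmg4 at 0.93, Psmc6 at 0.95, Psmd5 at 0.97, Psmg3 at 0.99 and Psme4 at 1.01. With another draw of the thinning Psmc4 was at 1.15, Psmd6 at 1.02 and Psmc5 at 0.99, so these calls depend on which UMIs chose the cells.

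In the same split the partners were at 1.02, eIF3 at 1.01 and CCT at 1.07. Core-high cells were deeper (median 1528 against 1322.5 UMIs) and had more S phase list UMIs (5309 against 4164 CPM) and G2/M list UMIs (5900 against 4823 CPM). Within the depth bins the ratio was 1.13 and was above 1 in 8 of 8 bins. The part of the cell cycle lists in the ratio was not tested.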

How the data were processed

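Gene-by-cell UMI counts of 2 inDrops libraries were used as the authors deposited them, and per the labels the libraries are aliquots of 1 pool. The submitters' processing notes name RSEM 1.3.0, SAMtools 1.3.1, Bowtie 1.1.1 and the GRCm38 build, but their roles and settings are not given in the sources used here. Barcodes with at least 500 UMIs (GFP left out) and at most 20% mt- UMIs were kept, and no doublet caller was run. Cells were thinned once to 500 UMIs to score S phase, G2/M, Procr and core particle UMIs. The high set was at or above the 75th and the low set at or below the 25th percentile of the score. Presence was set against absence for Procr (after thinning) and for GFP (in the full counts). Levels are from unthinned sums, as counts per 1000000 UMIs (CPM). Ratios have exact conditional binomial intervals, shares Clopper-Pearson and levels Poisson intervals. Psmb6-ps, Psmb5-ps, Psmb6-ps2, Psmb7-ps2 and Psme2b share sequence with subunits and are uncertain. In each split the 8 highest and 8 lowest measured members, the catalytic subunits, Psme1, Psme2 and Psmg1 to Psmg4 were named. The members and lists were chosen with earlier results of these data known. The family member left out is not reported here. Of the listed marker genes and partners, 27 of 30 partner symbols, 7 COP9, 12 eIF3 and 7 CCT symbols were found. The ratio code was tested on simulated data. Promoter windows are RefSeq's and gene positions GENCODE's, both for GRCm38. The tools were matplotlib 3.10.9, pandas 2.3.3, scipy 1.17.1 and numpy 2.4.6 under Python 3.11.15.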

Additional observations from a re-analysis of the deposited data

How the results depend on the processing

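The member share of 0.478% was 0.485% with at least 1000 UMIs, 0.466% with each cell thinned, 0.596% over totals without mitochondrial and ribosomal protein UMIs, and 0.474 to 0.486% with an aliquot left out. In the S phase split the member ratio of 1.27 was 1.14 for the median score and 1.20 within depth bins, and 1.23 to 1.29 with an aliquot left out. In the G2/M split the ratio of 1.19 was 1.14 thinned, 1.14 over totals without mitochondrial and ribosomal protein UMIs, 1.11 for the median score and 1.10 within depth bins. The Procr ratio of 0.88 was 0.93 within depth bins and 0.84 to 0.94 with an aliquot left out. The reporter ratio of 0.95 was 1.03 thinned and 0.86 to 0.97 with an aliquot left out. The regulatory particle ratio of 1.17 in the core particle split was 1.11 with another draw of the thinning. Depth bins and the removal of barcodes kept in both aliquots were chosen after seeing the data. Members past the fold, in the direction of the member ratio, are given per members measured, with the share of all features in brackets. In the S phase split they were 4 of 7 thinned (26.1%) and 7 of 39 for the median score (13.8%). With an aliquot left out they were 3 of 7 (27.8%) and 17 of 34 (27%), on the fold in the other aliquot alone. In the G2/M split they were 4 of 16 thinned (24.1%) and 9 of 44 for the median score (13.3%). Thinned, that is 25% of members, near the share of all features. With an aliquot left out they were 11 of 19 (26.3%) and 15 of 41 (25.2%). In the core particle split they were 2 of 8 thinned (10.6%) and 5 of 29 with another draw (9.45%). In the Procr split they were 1 of 5 with at least 1000 UMIs (19.8%) and 1 of 9 at most 10% mitochondrial UMIs (16.7%). They were 0 of 1 thinned (14.7%) and 10 of 36 with a lower minimum (18.7%). Over totals without mitochondrial and ribosomal protein UMIs they were 1 of 10 (14.9%). They were 1 of 9 without shared barcodes (17.1%) and 1 of 10 without granulocyte marker cells (16.4%). Aliquot 2 alone gave 1 of 4 (23.8%). Aliquot 1 alone gave 0 of 1 (15.7%), and its only measured member was past the fold higher. In the reporter split both directions are given. With at least 2 GFP UMIs 1 of 1 was higher (23.5%). Thinned, and in aliquot 1 alone, 0 members were measured. With a lower minimum 4 of 34 were higher (20.8%) and 7 lower (16.2%). In aliquot 2 alone 2 of 8 were higher (28.8%) and 1 lower (16.4%). Fewer members reach the minimum in smaller or thinned sets. For the median score 39 were measured in the S phase and 44 in the G2/M split, against 37 and 45 in the main setting. Called values that changed side were Psmc5 in the core particle split (0.99, another draw), Psmg3 in the G2/M split (0.88, thinned), the base in the Procr split (1.01, thinned) and the chaperones in the S phase split (0.97, thinned). The lid ratio in the S phase split was 1.71 thinned, 1.37 with another draw and 1.29 for the median score. With the aliquot as a replicate block, the S phase, G2/M, Procr, reporter and core particle ratios were 1.27, 1.19, 0.88, 0.95 and 1.17. The block and the minimum on pooled UMIs, under which the counts were 15, 16, 2, 3 and 8, were also chosen after seeing the data. The pairs of subcomplexes compared by ratios of ratios were not set in advance.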
